A study of Mus musculus with 6 samples.

Results

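Elastic fibres of the aortic wall were examined here through 10 genes: elastin itself (Eln), the lysyl oxidases (Lox, Loxl1, Loxl2, Loxl3 and Loxl4) and the fibulins of the elastic fibre and its surroundings (Fbln5, Efemp2, Fbln1 and Fbln2). They were taken by symbol from the 31055 genes of a single-cell RNA-seq count matrix, and all 10 were present. The cells were taken from the thoracic aorta, root to arch, of 6 females aged 16 weeks on a 129SVE background. Of the mice, 4 were controls (CTL, Tgfbr1+/+), among which 2 also carried Wnt2CRE, a recombinase driven by the Wnt2 promoter that marks cells of cardiac neural crest (CNC) origin, with the conditional tracer EGFP-L10a. The other 2 were a model of Loeys-Dietz syndrome (LDS), heterozygous for a missense change in the TGF-beta type I receptor (Tgfbr1M318R/+). Each mouse gave 1 library, and the 6 libraries are told apart in the matrix by a barcode suffix from 1 to 6. The sources used here do not tie a suffix to a mouse, so CTL and LDS were not compared, and every comparison was made between cells of the same library.

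Elastin is secreted as a soluble monomer, tropoelastin, laid down on a scaffold of fibrillin microfibrils and then crosslinked into an insoluble fibre. Lysyl oxidases are copper-dependent enzymes that oxidize lysines of elastin and collagen and so start the crosslinks. Fbln5 (fibulin-5) and Efemp2 (fibulin-4) bind tropoelastin and bring lysyl oxidases to it, while Fbln1 and Fbln2 are larger fibulins of basement membranes, microfibrils and the adventitial matrix. In the aorta the elastic lamellae lie in the media, the layer of vascular smooth muscle cells (VSMCs), and the adventitia around it is rich in fibroblasts. Loss of elastin, Lox, Fbln5 or Efemp2 is known to leave the mouse aorta stiff, tortuous or dilated.

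The counts are unique molecular identifiers (UMIs), each marking the 3′ end of a transcript molecule, so that a level does not grow with transcript length. Of 30716 barcodes, 24972 passed the study's filters of 1000 to 5000 genes, 1500 to 25000 UMIs and under 20% mitochondrial UMIs. Libraries held 1863 to 6395 such cells, with 18218282 to 38105145 UMIs and a median of 5572 to 9838 UMIs per cell, and 76 barcode sequences among these cells occurred in over 1 library. Clusters made without the 10 genes were named by markers as VSMC-like (10284 cells), fibroblast-like (13570), endothelial-like (570) and leukocyte-like (548). The 7 VSMC markers together took a median of 66431 counts per 1000000 UMIs (CPM) in VSMC-like cells against 1984 in fibroblast-like cells, and the 7 fibroblast markers 642 against 22711. Fewer cells of a type and less RNA per cell cannot be told apart from a total over cells, so levels are given per 1000000 UMIs of the same cells.

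Together the members gave 175804 UMIs of Eln, 241428 of Fbln1, 157780 of Fbln5, 43544 of Loxl1, 37671 of Fbln2, 21875 of Efemp2, 18805 of Lox, 8448 of Loxl2, 5793 of Loxl3 and 198 of Loxl4. On mouse build mm10, as the GENCODE M21 annotation places them, Eln lies at chr5:134702593-134747323, Loxl1 at chr9:58287738-58313186, Loxl4 at chr19:42593982-42612813 and Fbln5 at chr12:101746565-101819055, all on the minus strand. Loxl2 lies at chr14:69609068-69695834, Loxl3 at chr6:83034173-83052562, Efemp2 at chr19:5473954-5482517, Fbln1 at chr15:85205949-85286535 and Fbln2 at chr6:91212455-91272540, on the plus strand. A gene on the opposite strand overlaps Eln (Gm30003, 43 UMIs in all), Loxl2 (Gm27177, 0 UMIs), Loxl3 (Htra2, 5671 UMIs) and Efemp2 (Mus81, 2455 UMIs). Htra2 gave nearly as many UMIs as Loxl3 itself, and whether the overlap touched the level of Loxl3 was not tested.

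The fibulins divided most sharply between the cell classes below, and promoters of 3 of them are shown for reference. They are RefSeq promoters on GRCm38.p6, each running from 250 bases before to 50 bases after a transcript start, written 5′ to 3′ on the gene's strand, with GC boxes (GGGCGG on either strand) in capitals. They lie at chr12:101819070-101819369 (Fbln5), chr15:85205758-85206057 (Fbln1) and chr6:91212514-91212813 (Fbln2). This Fbln5 window lies outside the gene bounds given above, and its last 25 bases are in no GENCODE M21 transcript of Fbln5. Another Fbln5 window, at chr12:101818435-101818734, has its last 25 bases in such a transcript and holds 0 GC boxes.
Fbln5: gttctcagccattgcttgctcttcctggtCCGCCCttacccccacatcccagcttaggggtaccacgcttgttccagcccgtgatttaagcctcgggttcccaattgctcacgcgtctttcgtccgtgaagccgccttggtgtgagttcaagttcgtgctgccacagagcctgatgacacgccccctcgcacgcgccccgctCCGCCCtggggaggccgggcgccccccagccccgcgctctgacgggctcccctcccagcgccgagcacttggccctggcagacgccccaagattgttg
Fbln1: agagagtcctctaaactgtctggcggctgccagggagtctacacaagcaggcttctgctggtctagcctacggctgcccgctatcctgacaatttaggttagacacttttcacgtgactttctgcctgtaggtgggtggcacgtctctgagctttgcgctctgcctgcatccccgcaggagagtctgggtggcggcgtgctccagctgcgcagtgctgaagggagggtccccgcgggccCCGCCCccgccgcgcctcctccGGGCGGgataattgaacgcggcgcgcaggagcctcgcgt
Fbln2: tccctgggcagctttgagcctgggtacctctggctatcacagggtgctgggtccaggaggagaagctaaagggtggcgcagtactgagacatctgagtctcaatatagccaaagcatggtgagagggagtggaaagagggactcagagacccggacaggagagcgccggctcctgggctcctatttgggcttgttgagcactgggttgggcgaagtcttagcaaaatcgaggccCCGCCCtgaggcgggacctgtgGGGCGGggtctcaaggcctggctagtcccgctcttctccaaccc
RefSeq windows of 300 bases were at hand for 5 of the 10 members, 9 windows in all, some of them overlapping. A GC box stood in 7 of the 9, against 35.7% of 32851 mouse promoters of the same length. The E box CACGTG stood in the 2 overlapping windows of Fbln1 (7.15% of all promoters). The letters of a TATA box (TATAAA, 13.6%), an AP-1 element (TGANTCA, 7.81%), a GATA element (AGATAA, 11.2%) and a CArG box (1.63%) stood in 0 of the 9 windows on either strand. These matches describe letters only.

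Elastin transcripts were abundant in both main classes and highest in VSMC-like cells taken as a whole. Eln ran from 700 to 1791 CPM over the 6 libraries in VSMC-like cells (median 1380) and from 459 to 1271 CPM in fibroblast-like cells (median 737). The 2 ranges overlapped, but within each library the VSMC-like cells were higher, with a median log2 ratio of 0.62 (0.38 to 1.25, higher in 6 of 6 libraries). Over all genes with at least 10 CPM, 35% were higher in VSMC-like cells in all 6 libraries and 36.7% were lower, with a median log2 ratio of -0.01, so a direction held in every library is common in this contrast. Library 5 had the lowest Eln in both classes, 700 and 459 CPM, and it also had the largest share of dissociation-response transcripts in VSMC-like cells (a median of 1.87% of UMIs against 0.701% to 1.2% in the other libraries). The part of dissociation in that low level was not tested.

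Among lysyl oxidases, Lox itself, the first described enzyme of the family, did not differ in direction between the classes. It ran from 76 to 135 CPM in VSMC-like cells (median 110) and from 35.1 to 137 CPM in fibroblast-like cells (median 119), with a median log2 ratio of 0.03 (-0.29 to 1.11, higher in 4 of 6 libraries). The ratio of 1.11 came from library 2 alone, whose fibroblast-like cells held the 35.1 CPM, while the other 5 libraries lay between 100 and 137 CPM. Loxl1, an oxidase tied to elastin through Fbln5, was the most abundant member of the family in both classes, at 107 to 177 CPM in VSMC-like cells (median 157) and 287 to 382 CPM in fibroblast-like cells (median 343). These ranges did not overlap, and the median log2 ratio was -1.19 (-1.42 to -0.95, lower in 6 of 6). Loxl2, which acts on basement membrane collagen, was at 19 to 29.4 CPM against 41.4 to 80.6 CPM, also without overlap (median log2 ratio -1.47, lower in 6 of 6). Loxl3 was closer, at a median of 25.7 CPM (20.7 to 34.2) against 38.1 CPM (32.2 to 48.3), with a median log2 ratio of -0.64 and lower in 6 of 6. Loxl4 was barely detected, with 37 UMIs in VSMC-like and 159 in fibroblast-like cells, under the 10 CPM filter, at a median log2 ratio of -1.70.

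The fibulins split into a pair at similar levels in both classes and a pair far higher in fibroblast-like cells. Fbln5, the fibulin that links elastin to integrins at the cell surface, was at 780 to 1034 CPM in VSMC-like cells (median 934) and at 692 to 1177 CPM in fibroblast-like cells (median 912), with a median log2 ratio of -0.10 (higher in 2 of 6). Efemp2, fibulin-4, was at a median of 115 CPM (94.3 to 134) against 142 CPM (102 to 157), a small difference that pointed the same way in 6 of 6 libraries (median log2 ratio -0.20). Fbln1 was at 17.1 to 245 CPM in VSMC-like cells (median 58.6) against 1593 to 3276 CPM in fibroblast-like cells (median 2398), a median log2 ratio of -5.27. Fbln2 was at 3.51 to 28.9 CPM (median 8.49) against 206 to 471 CPM (median 380), a median log2 ratio of -5.43. Counting the members that passed the 10 CPM filter, 1 of 9 was higher and 6 of 9 were lower in VSMC-like cells in all 6 libraries, beside 35% and 36.7% of all genes, with a median over members of -0.64.

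**Figure D1:**
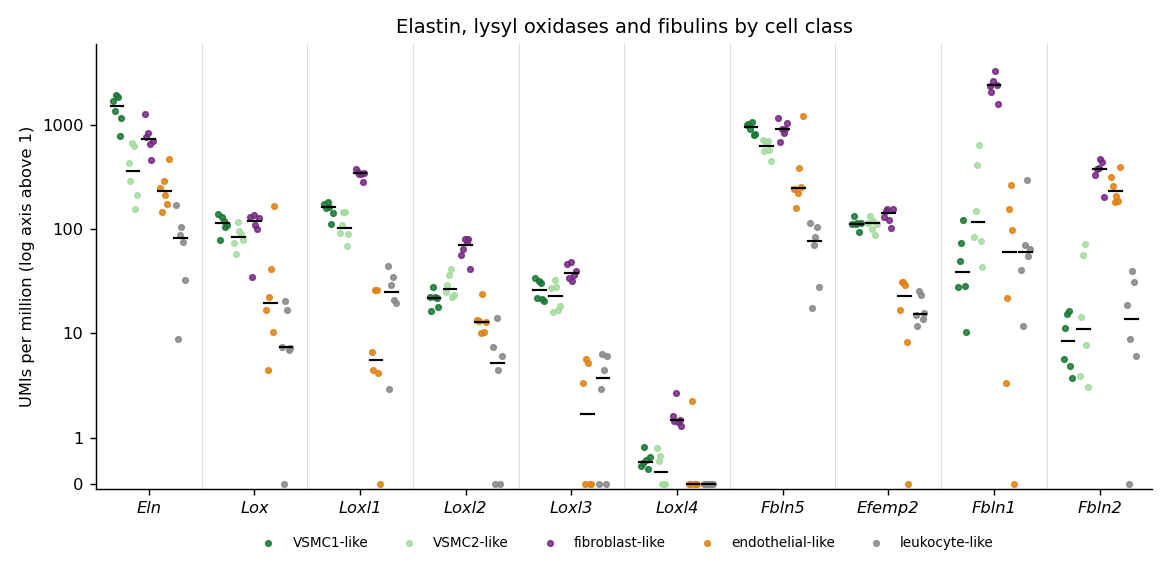
Levels of the 10 members in CPM (vertical axis, logarithmic above 1), with 1 point per library and the median over 6 libraries as a bar, for VSMC1-like, VSMC2-like, fibroblast-like, endothelial-like and leukocyte-like cells. Eln is highest in VSMC1-like cells (median 1525), Fbln1 in fibroblast-like cells (median 2398), and Fbln2 is at a median of 234 in endothelial-like cells.

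Pooled over libraries, the low Fbln1 and Fbln2 of smooth muscle were no higher than in leukocyte-like cells, but single libraries pointed both ways. Fbln1 was at 71.1 CPM in VSMC-like against 11.7 CPM in leukocyte-like cells of library 2, and at 17.1 against 64.3 CPM in library 6. Fbln2 was at 20.6 against 8.9 CPM in library 3 and at 5.27 against 31.2 CPM in library 5. Leukocyte-like cells, which should lack these transcripts and of which 5.29% were marked as doublets, held 119 CPM of Fbln1 and 18.2 CPM of Fbln2 when pooled, 136% and 151% of the pooled level in VSMC-like cells, and 4.69% and 4.67% of that in fibroblast-like cells. Library 4 had the most Fbln1 in leukocyte-like cells, 295 CPM, and the others 11.7 to 71.2 CPM. The fibroblast marker Dcn stood in the same proportion, at 4.75% of its level in fibroblast-like cells. After thinning each cell to 3000 UMIs, Fbln1 had a UMI in 11.6% of VSMC-like cells (exact 95% interval 11 to 12.3, counting error only), in 11.2% of leukocyte-like cells (8.4 to 14.4) and in 93.8% of fibroblast-like cells (93.3 to 94.2). Unthinned shares were 18.9%, 15% and 96.1%, at median depths of 7205, 5162 and 6120 UMIs. The pooled share of VSMC-like cells with Fbln1 was thus at that of leukocyte-like cells, although among VSMC2-like cells alone it was 18.8% (16.9 to 20.9, 24.3% unthinned). By library the thinned share of VSMC2-like cells had a median of 13.5% and ran from 5.26% to 34.7%. Of the VSMC2-like cells, 239 lay in a finer cluster with many doublet marks, described below, and the share without them was not computed.

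Elastin in fibroblast-like cells was well above that background. Pooled over libraries, Eln was at 764 CPM in fibroblast-like and 1283 CPM in VSMC-like cells, while Myh11, smooth muscle myosin heavy chain, was at 45.3 CPM against 2461 CPM. Leukocyte-like cells held 76.6 CPM of Eln, 5.98% of the level in VSMC-like cells, beside 3.76% for Myh11 and 4.15% for Acta2. At 3000 UMIs per cell, Eln had a UMI in 79.1% of VSMC-like cells, 49% of fibroblast-like cells and 9.38% of leukocyte-like cells (exact 95% intervals 78.3 to 79.9, 48.1 to 49.8 and 6.84 to 12.5). The unthinned shares were 88%, 60.4% and 11.5%.

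Eln was spread less evenly over single fibroblast-like cells than over single VSMC1-like cells. At 3000 UMIs per cell, VSMC1-like cells held a median of 3 Eln UMIs and 13.8% of them held 0. Fibroblast-like cells held a median of 0, with 51% at 0, yet the highest held 113 Eln UMIs against 68 in VSMC1-like cells. The 10% of fibroblast-like cells with the most Eln held 58.5% of all Eln UMIs of that class, and the top 10% of VSMC1-like cells held 32.4%. VSMC2-like cells were as uneven as fibroblast-like cells, with 59.7% at 0 and 56.7% of Eln UMIs in their top 10%. Of the 1616 VSMC2-like cells, 239 lay in a finer cluster with many doublet marks, described below, where Eln was at 1096 CPM. Another finer cluster held 1372 of them and had 297 CPM of Eln, and the part of that mix was not tested. Such shares also depend on level, and reached 100% for Loxl2, with 92.2% of VSMC2-like cells at 0. Fbln5 was spread more evenly, with 40.4% of its UMIs in the top 10% of fibroblast-like cells and 31.3% in that of VSMC1-like cells.

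Both classes used the same oxidases in different proportions. Of lysyl oxidase UMIs in VSMC-like cells, Lox made up 36% (28.3 to 40.4 over libraries), Loxl1 48.1%, Loxl3 8.58%, Loxl2 7.52% and Loxl4 0.138%. In fibroblast-like cells Lox made up 20.6% (7.13 to 23), Loxl1 61.3%, Loxl2 13.2%, Loxl3 7.18% and Loxl4 0.278%. The ranges of Lox did not overlap between the classes. Of fibulin UMIs, Fbln5 made up 83.4% in VSMC-like cells (72.1 to 86.2) and 22.9% in fibroblast-like cells (17.8 to 34.8). Fbln1 made up 4.96% (1.78 to 17.5) and 62.8% (53.2 to 69.5), so that the fibulin pool of fibroblast-like cells was mostly Fbln1 and that of VSMC-like cells mostly Fbln5.

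**Figure D2:**
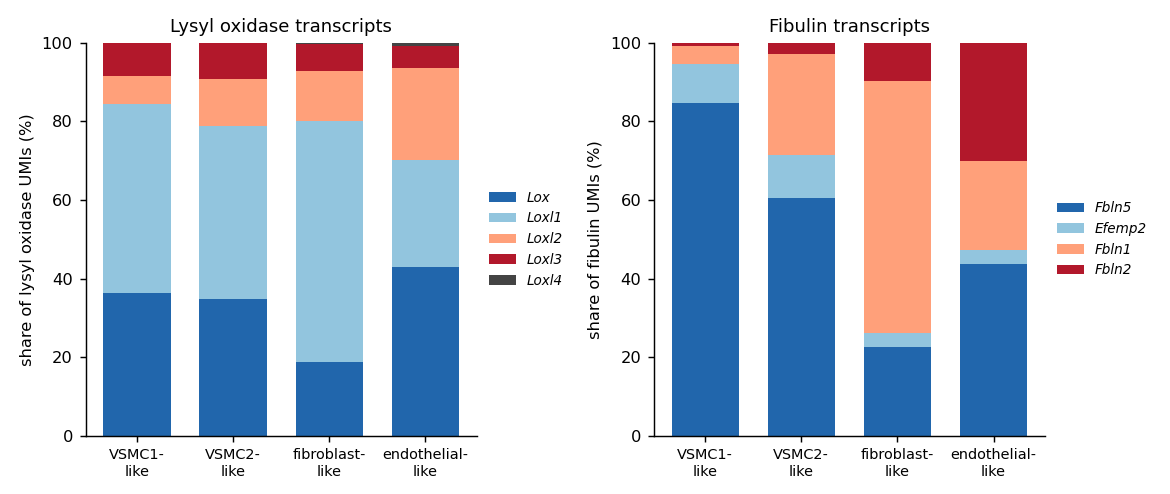
Share of each gene among the UMIs of its family (vertical axis, percent, pooled over 6 libraries) in VSMC1-like, VSMC2-like, fibroblast-like and endothelial-like cells, for lysyl oxidases (left) and fibulins (right). Loxl1 makes up 48.2% of lysyl oxidase UMIs in VSMC1-like and 61.3% in fibroblast-like cells, and Fbln5 makes up 84.6% of fibulin UMIs in VSMC1-like and 22.6% in fibroblast-like cells.

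Endothelial-like cells stood out by Fbln2, a component of the matrix under the endothelium. Over the 5 libraries with at least 20 such cells, Fbln2 was at 183 to 314 CPM (median 208), above the VSMC-like cells of the same library in all 5 (median log2 ratio 4.48, 2.84 to 5.85). In this contrast, looked at after its values were seen, 34% of genes were higher in all 5 libraries and 23.5% were lower. The level was 47.6% of that in fibroblast-like cells, while the summed fibroblast markers were at 8.89% and Fbln1 at 4.01% of their level there. The median was 209 CPM in the cluster led by Cd36, Rbp7 and Gpihbp1 and 204 CPM in the cluster led by Mmrn1, Nts, Ctla2a and Lyve1, described in 5 and 3 libraries. At 3000 UMIs per cell, Fbln2 had a UMI in 36.3% of endothelial-like cells (exact 95% interval 31.7 to 41.1) and in 2.46% of leukocyte-like cells (1.23 to 4.35), and unthinned in 44.7% and 4.74%. Eln (214 CPM), Fbln5 (241 CPM), Lox, Loxl1, Loxl2, Loxl3 and Efemp2 were lower than in VSMC-like cells in all 5 libraries, while Fbln1 pointed both ways (median log2 ratio 0.11, -3.76 to 1.46). Loxl1, at 6.69 CPM, lay below its median of 25 CPM in leukocyte-like cells.

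Ordering the classes by their median level gave a different order for each kind of member. For Eln it ran from VSMC-like (1380 CPM) through fibroblast-like (737), endothelial-like (231) to leukocyte-like cells (82), over all 6 libraries. For Lox, Fbln5 and Efemp2 the first 2 places were held by VSMC-like and fibroblast-like cells with ranges that overlapped, and endothelial-like cells followed. For Loxl1, Loxl2, Loxl3 and Fbln1 fibroblast-like cells came first, and only for Loxl3 did their range overlap that of VSMC-like cells. For Fbln2, fibroblast-like cells (206 to 471 CPM) and endothelial-like cells (183 to 396 CPM) overlapped and both lay above every library of VSMC-like cells. Endothelial-like cells overlapped fibroblast-like cells for Eln, Lox and Fbln5 as well, and they overlapped leukocyte-like cells for Eln, Lox, Loxl1, Loxl2, Loxl3, Efemp2 and Fbln1. Within every library, though, Eln and Lox were higher in endothelial-like than in leukocyte-like cells, while Loxl1, Loxl2, Loxl3, Efemp2 and Fbln1 pointed both ways. The direction of Lox rests on few UMIs, 99 in endothelial-like and 41 in leukocyte-like cells. In library 2 they were 1 against 0, and in library 3 the levels were 22.5 against 20.3 CPM. Library 6 held only 10 endothelial-like cells, and it alone gave the overlap with fibroblast-like cells for Eln, at 473 CPM, and for Fbln5, at 1214 CPM. For Lox it was at 166 CPM, and library 4, at 41.2 CPM, also lay within the 35.1 to 137 CPM of fibroblast-like cells.

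The study divides smooth muscle into VSMC1 and VSMC2. The same division, named here by Enpep and Notch3 (high in VSMC2) and Tes and Ptprz1 (low), gave 8403 VSMC1-like and 1616 VSMC2-like cells, with 265 left in neither. VSMC2-like cells made up 9.67% to 21.1% of VSMC-like cells per library. They had more cells marked as doublets (9.78% against 1.45%), more summed fibroblast markers (median 1391 CPM, 681 to 4474, against 515 CPM, 317 to 830) and more dissociation-response transcripts, of which 16 of 18 were higher in all 6 libraries, beside 12.7% of all genes (median summed level 21566 against 13059 CPM). Most of the doublet marks fell in 1 finer cluster of 397 cells led by Cygb, Clec3b and Dpt, in which 40.1% of cells were marked and fibroblast markers summed to 7011 CPM, and 239 of its cells were VSMC2-like. Values without that cluster, a setting tried only once these values were known, are given beside each result it changed.

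Elastin was the member with the widest gap between the subtypes. Eln was at 786 to 1958 CPM in VSMC1-like cells (median 1525) and at 155 to 668 CPM in VSMC2-like cells (median 360), without overlap. The median log2 ratio was -2.10 (-2.46 to -1.55, lower in 6 of 6), without the doublet-rich cluster it was -2.43, and with every gene kept in the clustering it was -1.36, still lower in 6 of 6. Of all genes with at least 10 CPM, 20.9% were lower and 12.7% higher in VSMC2-like cells in all 6 libraries (16.8% and 15.8% with scaling by the median of ratios), with a median of -0.05. At 3000 UMIs per cell, Eln had a UMI in 86.2% of VSMC1-like and 40.3% of VSMC2-like cells (exact 95% intervals 85.4 to 86.9 and 37.8 to 42.8). Unthinned, the shares were 93.8% and 56.2%, at median depths of 7261 and 7000 UMIs. Set beside fibroblast-like cells, at 459 to 1271 CPM of Eln, VSMC2-like cells were lower in every library.

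Fbln5, Loxl1 and Lox were lower in VSMC2-like cells too, each by less than Eln. Fbln5 was at 805 to 1073 CPM in VSMC1-like and 451 to 714 CPM in VSMC2-like cells, again without overlap (median log2 ratio -0.55, lower in 6 of 6), but with every gene kept in the clustering only 3 of 6 libraries were lower. Without the doublet-rich cluster the ratio of Fbln5 was -0.72. Loxl1 was at a median of 162 against 102 CPM (-0.59) and Lox at 115 against 84.1 CPM (-0.39), each lower in 6 of 6 libraries although their ranges overlapped. Without the doublet-rich cluster they were -0.86 and -0.47, and in cells low in dissociation transcripts each was lower in 5 of 6 only. Loxl3 was lower in 5 of 6 (-0.23; in 6 of 6 without the doublet-rich cluster) and Efemp2 in 4 of 6 (-0.02; in 3 of 6 without it), and the ratio of Efemp2 lay between -0.16 and 0.07 in all libraries. Loxl2 went the other way, at 22 against 27 CPM (median log2 ratio 0.38, higher in 6 of 6), and at 0.12 without the doublet-rich cluster. Loxl4 had 32 UMIs in VSMC1-like and 3 in VSMC2-like cells, too few to compare.

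Fbln1 was higher in VSMC2-like cells, at a median of 117 CPM (43.2 to 637) against 38.9 CPM (10.3 to 122) and a median log2 ratio of 1.83 in 6 of 6 libraries. Much of that difference lay in the doublet-rich cluster, where Fbln1 was at 531 CPM. Without the cluster, Fbln1 was at 50.3 against 35.8 CPM (median log2 ratio 0.35, higher in 5 of 6), and Fbln2 turned from a median of 0.50 (higher in 4 of 6) to -1.18 (lower in 6 of 6), at 3.36 against 8.26 CPM. In leukocyte-like cells the median over libraries was 59.9 CPM for Fbln1 (11.7 to 295) and 13.8 CPM for Fbln2 (0 to 40.1), so that the 117 CPM of VSMC2-like cells lay above that median and the values without the cluster below it. Of the 8 members that passed the 10 CPM filter, 2 were higher and 4 lower in all 6 libraries, beside 12.7% and 20.9% of all genes, and 1 of the 2 was Fbln1.

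**Figure D3:**
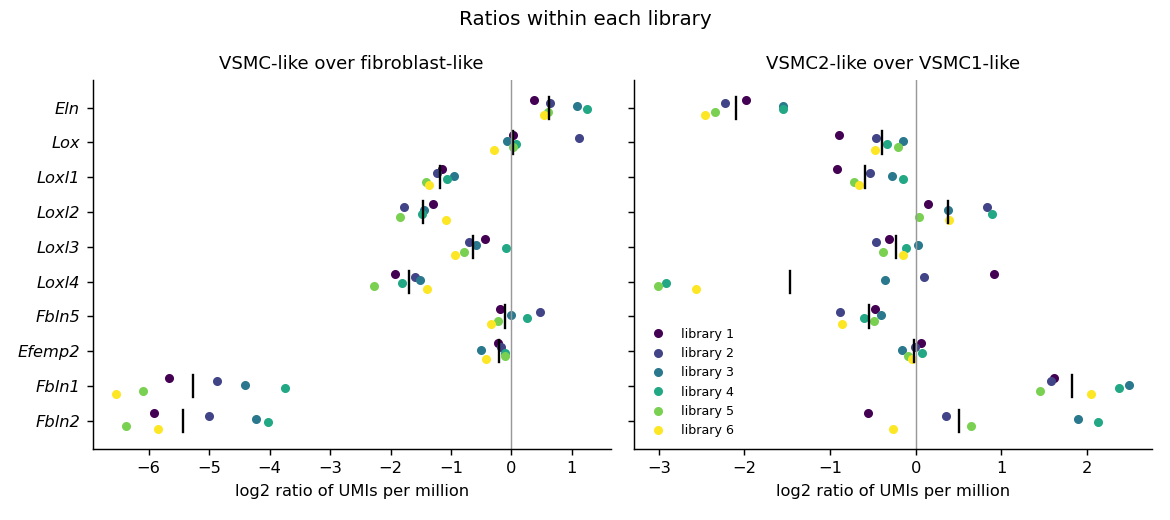
Log2 ratio of CPM within each library (horizontal axis) for the 10 members, with 1 point per library and the median as a bar, for VSMC-like over fibroblast-like cells (left) and VSMC2-like over VSMC1-like cells (right). Eln lies above 0 in all 6 libraries on the left (0.38 to 1.25) and below 0 in all 6 on the right (-2.46 to -1.55), and library 2 stands apart for Lox on the left at 1.11.

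Finer clusters, made without the members and the other gene lists, placed the low Eln of smooth muscle in a single cluster. It was led by Thbs1, Pgam2 and Olfr558, held 1372 of the 1616 VSMC2-like cells, and had 297 CPM of Eln (154 to 481 over libraries) and 568 CPM of Fbln5 (470 to 695). The other clusters with at least 50 cells ranged from 1045 to 2254 CPM of Eln. The highest was led by Prrx2, Sfrp2 and Rgs5, a gene of pericytes and contractile mural cells, and had 2254 CPM of Eln (1788 to 3310), 2067 CPM of Fbln5 (1804 to 3663) and 53.9 CPM of Loxl3 (44.8 to 54.9). It was described in 5 libraries, and Fbln5 there lay above its range in the largest cluster, 701 to 977 CPM.

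Other smooth muscle clusters were led by stress genes or by immune genes. The cluster led by Sgk1, Socs3 and Mt1 had the largest share of dissociation-response transcripts, a median of 3.22% of UMIs, beside 0.526% in the largest cluster. Eln there was at 1344 CPM (606 to 1559), a range that overlapped that of the largest cluster, at 1514 CPM (797 to 1836). Lox was at 115 against 109 CPM and Fbln5 at 901 against 866 CPM. The Thbs1 cluster, with the lowest Eln, had 2.15%. A small cluster led by Cd74 and MHC class II genes had the highest Fbln5 of smooth muscle, 2752 CPM (1968 to 3105, 4 libraries), with Fbln1 at 446 CPM, and its fibroblast markers summed to 4137 CPM with 0.524% of cells marked as doublets. The part of fibroblast RNA in those values was not tested.

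Clusters of fibroblast-like cells differed in Eln, in Fbln5 and in how much Lox and Loxl2 they held beside Loxl1. The largest cluster, led by Cpz and Cpxm2, had 1445 CPM of Eln (1008 to 1994), 251 CPM of Lox (84.4 to 290), 1564 CPM of Fbln5 (1047 to 1724) and 27.1 CPM of Loxl2 (20.8 to 35.2). A cluster led by Cd74 and Coch had 113 CPM of Eln (41.4 to 197), 6.41 CPM of Lox (1.32 to 14.4), 320 CPM of Fbln5 (195 to 618) and 111 CPM of Loxl2 (68.7 to 158). None of these ranges overlapped between the 2 clusters. Lox made up 33.3% of lysyl oxidase UMIs and Loxl2 3.9% in the Cpz cluster, against 2.05% and 36.8% in the Cd74 and Coch cluster. Loxl1 was the largest share in both, at 57.2% and 56.2%. The level of Loxl1 ran from 178 to 476 CPM over the 10 clusters. It also differed without overlap between these 2 clusters, at 437 CPM (381 to 461) in the Cpz cluster and 178 CPM (133 to 239) in the other. So did Loxl3, at 44.8 CPM (34.4 to 59.7) and 8.33 CPM (7.21 to 13.5).

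The highest median Eln among the 19 finer clusters was in fibroblast-like cells. A cluster of 282 cells led by Mia, Cxcl5 and Tfap2b had 2771 CPM of Eln (1078 to 2959 over 4 libraries), with 212 CPM of Lox and 1127 CPM of Fbln5. Its range of Eln overlapped those of the Cpz cluster and of the Prrx2 cluster of smooth muscle. A further cluster, led by Chad, 1500015O10Rik, Myh11 and Cnn1, had 744 CPM of Eln, 1408 CPM of Fbln5 and doublet marks on 13.2% of cells.

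Fbln2 and Fbln1 varied separately among fibroblast-like clusters. Fbln2 was highest in the cluster led by Emilin2, Ly6c1 and Cd248, at 925 CPM (612 to 1057), and made up 17.3% of fibulin UMIs there. It was 138 CPM (115 to 256) in the cluster led by Igfbp3 and Ptn, which had 3429 CPM of Fbln1 (2439 to 4152), a range that overlapped the 2521 to 4063 CPM of the Emilin2 cluster. Efemp2 was the steadiest member, between 96.7 and 173 CPM over the 10 fibroblast-like clusters and between 105 and 147 CPM over the 9 VSMC-like clusters.

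**Figure D4:**
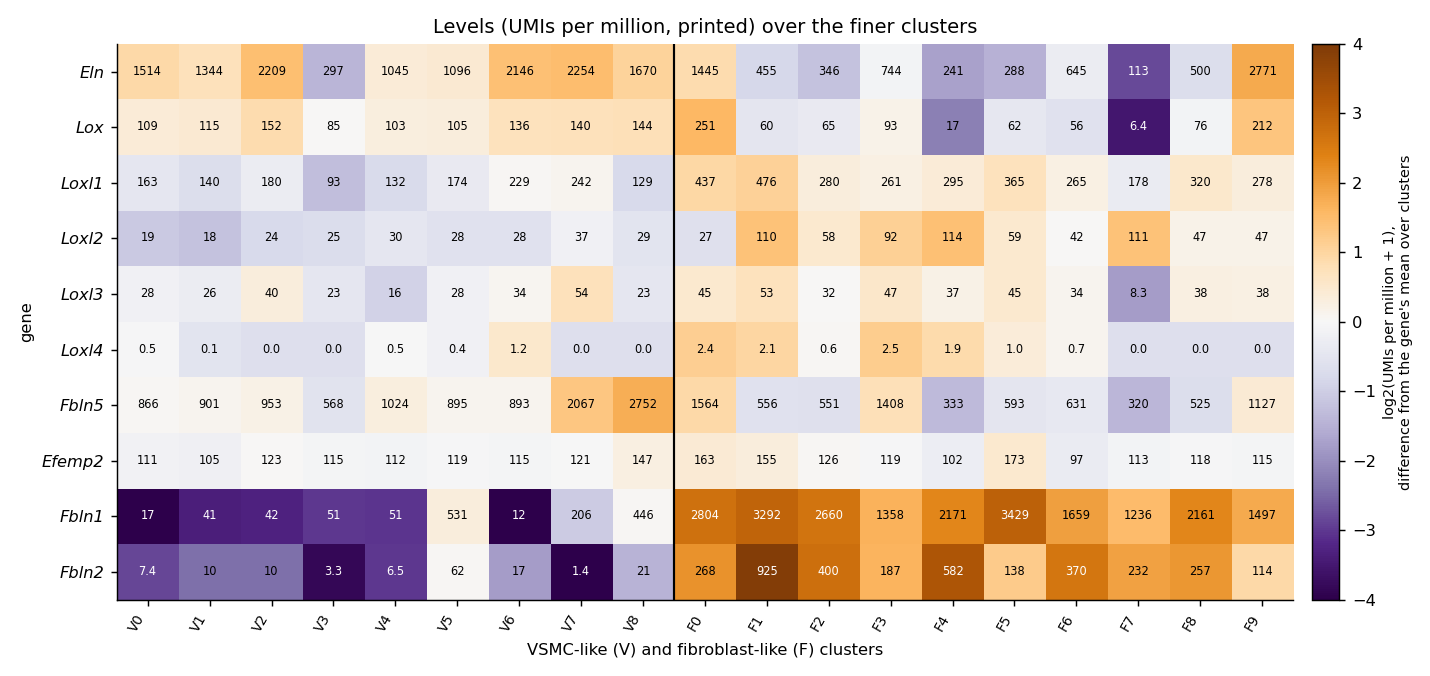
Median level in CPM (printed) of each member in the 9 VSMC-like (V) and 10 fibroblast-like (F) clusters, coloured by the difference of log2(CPM + 1) from the gene's mean over the 19 columns. Eln and Lox are low in F7, the Cd74 and Coch cluster (113 and 6.41), and high in F0, the Cpz cluster (1445 and 251), where Loxl2 is at 27.1.

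Single cells of the same library were then set against each other. Cells thinned to 3000 UMIs were ranked by their Eln count within class and library, and the 25% with the most Eln were set against the 25% with the least, a comparison chosen after the cluster values were seen. In VSMC-like cells Lox (median log2 ratio 0.95), Loxl1 (0.90), Fbln5 (0.87) and Loxl3 (0.67) were higher in the high-Eln cells in 6 of 6 libraries, where 12.4% of all genes were higher and 8.15% lower in all 6. Loxl2 (0.09) and Efemp2 (0.15) were not, at 3 and 4 of 6 libraries. Fbln2 was higher in 6 of 6 (1.22), at 12.5 against 5.51 CPM, both below its pooled 18.2 CPM in leukocyte-like cells. Among VSMC1-like cells alone the ratios were 0.68 for Lox, 0.64 for Loxl1 and 0.63 for Loxl3, in 6 of 6 libraries each (6.55% of genes higher, 5.41% lower), 0.53 for Fbln5 in 5 of 6 and 0.66 for Loxl2 in 5 of 6. The fibroblast marker Dcn moved the other way in VSMC-like cells, at 227 against 398 CPM (-0.75, lower in 6 of 6), and its part in these differences was not tested.

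In fibroblast-like cells the contrast was wider. Lox was at a median of 265 CPM in the high-Eln cells and 55.2 CPM in the low-Eln cells (log2 ratio 2.27, 1.84 to 2.65), and Fbln5 at 1492 against 659 CPM (1.33). Loxl1 (0.75), Loxl3 (0.42) and Fbln1 (0.28) were also higher in 6 of 6 libraries, where 8.96% of all genes were. Loxl2 was lower in the high-Eln cells in 6 of 6, at 37.3 against 80.8 CPM (-1.06, -1.51 to -0.77), as were 9.55% of genes. The low-Eln cells held 0 Eln UMIs and were drawn at random from the cells with none. Smooth muscle transcripts moved with Eln in these cells too, with Myh11 at 44.2 against 10.1 CPM and Acta2 at 1058 against 402 CPM, and their part in the differences was not tested.

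**Figure D5:**
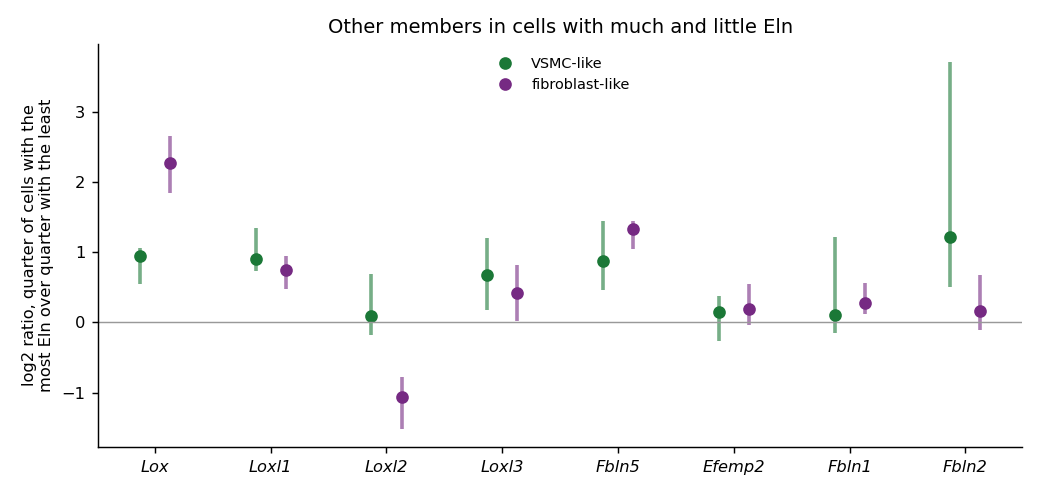
Log2 ratio of CPM (vertical axis) between the 25% of cells with the most and the 25% with the least Eln, for 8 other members in VSMC-like and fibroblast-like cells; points are medians over 6 libraries and lines run from the lowest to the highest library. Lox and Fbln5 lie above 0 in both classes, while Loxl2 lies below 0 in fibroblast-like cells (-1.06).

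Across the 15 clusters of all cells, levels of the members were correlated to differing degrees, and no grouping was computed. Pearson's r of log2(CPM + 1) was 0.90 between Eln and Lox, 0.91 between Eln and Fbln5, 0.97 between Loxl3 and Efemp2, 0.95 between Loxl1 and Loxl3, and 0.74 between Fbln1 and Fbln2, and it was -0.09 between Eln and Fbln2. It was also 0.91 between Lox and Efemp2, 0.86 between Lox and Loxl3, and 0.83 between Fbln5 and Efemp2. The points are clusters that share the same 6 libraries, and the values describe only these clusters. Endothelial-like and leukocyte-like clusters, 1 of them of only 37 cells, are among the points. Most members were low in them, and the part of that in the values of r was not tested. Of 11982 genes, those most like Eln were Nipal2 (r = 0.97), Bche, Tub, Sgcd and Foxf1. Lox was most like Vgll3 (0.97), Loxl1 like the collagen gene Col1a2 (0.98), Loxl2 like Gem (0.92) and Loxl3 like Sobp (0.98). Fbln5 was most like Pam (0.97), Efemp2 like Fzd2 (0.98), Fbln1 like Entpd2 (0.97) and Pdgfra, a receptor that marks fibroblasts (0.96), and Fbln2 like Irak1 (0.93).

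Partners of the members in elastic fibre assembly were lower in VSMC-like cells more often than higher. Of 20 microfibril and assembly genes, 19 passed the filter, 4 were higher and 14 lower in all 6 libraries (median log2 ratio -1.20), beside 35% and 36.7% of all genes (median -0.01). The highest ratios were those of Thsd4 (3.94), a microfibril-associated ADAMTS-like protein, and Ltbp1 (1.27), which stores latent TGF-beta on microfibrils, and the lowest those of Emilin2 (-6.44) and Adamtsl2 (-6.30). In VSMC2-like cells 14 of the 20 passed, 1 was higher (Fn1, fibronectin, 0.36) and 7 were lower (median -0.38), beside 12.7% and 20.9% of all genes. Mfap5 (-1.72) and Thsd4 (-1.63) were the lowest, while Adamtsl4 stood at 0.03. Without the doublet-rich cluster 1 was higher and 8 were lower (median -0.80), beside 12.7% and 23.8% of all genes. Mfap5 was then at -2.72 and Adamtsl4 at -0.42.

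Of 9 genes that act in the maturation of lysyl oxidases and collagen, 6 passed, 1 was higher in VSMC-like cells in all 6 libraries and 5 were lower (median -1.89), beside the same 35% and 36.7% of all genes. Postn, periostin, a matricellular protein that aids the activation of Lox, was the one that was higher (1.07), and Atox1, a copper chaperone, was next at -0.20. Fmod (-6.57) and Pcolce (-4.40), collagen-binding proteins, were the lowest. In VSMC2-like cells 4 passed, of which Pcolce was higher (1.74) and Postn lower (-1.74) in 6 of 6 libraries. Bmp1, the protease that cleaves pro-Lox, stood at 0.09 and Atox1 at 0.16, with a median of 0.13, and all genes again gave 12.7% and 20.9%. Pcolce moved with the fibroblast markers given above, and without the doublet-rich cluster it was at 1.28 (higher in 6 of 6), Postn at -2.41 and Bmp1 at -0.36.

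Of 17 genes of elastin degradation and its inhibitors, 11 passed the filter between the classes, 1 was higher in VSMC-like cells and 9 lower in all 6 libraries (median -2.04), beside 35% and 36.7% of all genes. The one higher was Serpine2 (2.13), a serine protease inhibitor, and Ctsb stood at -0.08, while Timp1 (-4.57), an inhibitor of metalloproteinases, and Mmp3 (-4.40), a metalloproteinase, were lowest. In VSMC2-like cells 12 passed, 2 were higher and 2 lower (median 0.23), near the 12.7% and 20.9% of all genes. Ctsk, cathepsin K, was higher (1.07), Ctsb (-0.71) and Serpine2 (-0.55) were lower in 6 of 6, and Mmp3 had 1.26 in 5 of 6 libraries. Without the doublet-rich cluster 1 was higher and 6 were lower (median -0.14), beside 12.7% and 23.8% of all genes. Ctsk was then at 0.67 (higher in 6 of 6) and Mmp3 was higher in 3 of 6.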

How the data were processed

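Single cells of the aorta from root to arch, labelled aortic root and ascending aorta, were freed with collagenase II, elastase and DNase I, sorted as DyeCycle Violet-positive and propidium iodide-negative cells and made into 10x Genomics 3′ libraries. Per the methods and the labels, the authors used Cell Ranger version 6 with the mm10 build and joined the libraries into 1 matrix, while the matrix header names 4.0.0. The deposited matrix holds raw UMI counts per gene and cell of 6 pooled libraries. Labels map no barcode suffix to a mouse, so no group was tested, no p-value was computed and the suffix served as the unit. The members and lists were chosen with earlier results of these data known.

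Cells were filtered as in the study (24972 of 30716 barcodes; all 10 members present). Seurat 5.3.0 (SCTransform v2, RPCA over libraries, 30 components, resolution 0.25, and 0.05 for subtypes and 0.3 for finer clusters) was run in R 4.3.3 with members and gene lists left out of the variable genes. A class was named by at least 3 markers found in at least 10% of cells and the highest marker score, a rule set for this work. Counts were summed by class and library and scaled to 1000000 (CPM). Log2 ratios used a prior of 0.5 UMI and were called when 6 of 6 libraries pointed the same way. The background is the same call over genes of at least 10 CPM on average over both sides. Finer clusters of at least 50 cells were described, over libraries with at least 20 of those cells. Doublets were marked with scrublet in scanpy 1.11.5 and kept. In 2 libraries the caller marked under 0.5% of cells, and the top 5% of scores were marked there. Shares of cells were compared after thinning each cell to 3000 UMIs, with shallower cells left out (555 VSMC-like, 1228 fibroblast-like, 154 endothelial-like, 100 leukocyte-like). Intervals are exact binomial at 95%.

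All 10 members were named, with the 2 highest and 2 lowest ratios of each pathway list, the genes most like a member and cluster leads. The steps were tested on simulated data. Alternatives were another scaling, log-normalized counts without integration, no doublets, all genes kept, means over cells, thinned cells, under 10% mitochondrial UMIs, fewer dissociation transcripts, finer subtypes, other resolutions (0.2 and 0.5), other filters and each library left out. A lead gene of some clusters is not reported here.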

Additional observations from a re-analysis of the deposited data

Results flagged for a closer look

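Each member's 6 library values were searched for a single library standing apart (Dixon's ratio above its 95% critical value), and 4 of 40 sets had one, where chance flags about 1 in 20. Lox was at 35.1 CPM in fibroblast-like cells of library 2, below the other 5 libraries (ratio 0.64). The log2 ratio of Lox between VSMC-like and fibroblast-like cells was 1.11 in the same library (ratio 0.74), and these 2 values share the same fibroblast-like cells. In the Cpz cluster of fibroblast-like cells, library 2 was again the lowest for Lox, at 84.4 CPM. Loxl4 was at 0.911 CPM in VSMC-like cells (ratio 0.72) and 2.68 CPM in fibroblast-like cells (ratio 0.76) of library 3, levels that rest on few UMIs.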

How the results depend on the processing

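No paired analysis was possible because the replicate numbers of the labels cannot be tied to the barcode suffixes; all ratios are between cells of the same library. Between VSMC-like and fibroblast-like cells, 1 member was higher and 7 were lower in every library (Loxl4 counted here). Of all genes of at least 10 CPM, 35% were higher and 36.7% lower. With each library left out in turn the member counts were again 1 and 7. Of 150 values of that comparison, 148 stayed within the spread between libraries and 2, both of Loxl4, moved (-1.13 as a mean over cells and -2.23 in thinned cells). Between VSMC2-like and VSMC1-like cells 145 of 160 values stayed within the spread and 15 moved. The counts were 2 higher and 4 lower, beside 12.7% and 20.9% of all genes, and 2 and 4 to 5 with a library left out. The count higher was 1 with log-normalized counts, without cells marked as doublets, in cells thinned to 3000 UMIs, in cells low in dissociation transcripts and without the doublet-rich cluster. In those settings 9.54% to 13.1% of all genes were higher. The count lower was 7 with log-normalized counts, beside 24.5% of all genes. In cells low in dissociation transcripts it was 2, beside 16.1%, and Lox and Loxl1 were each lower there in 5 of 6. Eln lay between -2.54 (log-normalized counts) and -1.36 (every gene kept) and was lower in 6 of 6 libraries in each of these settings. Fbln1 lay between 0.16 and 2.63 and Fbln2 between -2.12 and 1.94, and the cause was not tested. All 162 values of the family make-up stayed within the spread. At resolution 0.5 the highest median Eln among VSMC-like clusters was 18 times the lowest. Loxl4, with 198 UMIs in all, is limited by depth.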
